A study of Homo sapiens with 5 samples.

Results

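Transcripts of 49 genes that copy DNA, from origin licensing to the packing of new DNA into chromatin, were compared between parental and drug-tolerant persister cells of BT474, a widely used human breast cancer line of luminal type in which HER2 is amplified. The genes were a list of named members of the replication machinery, chosen with earlier results of these data known. Each matched 1 row of the authors' table, which held 18512 genes after repeated symbols were reduced to 1 row each. Persister cells were those left after 9 days in 2 µM lapatinib, which blocks the kinases of HER2 and EGFR, with drug and medium renewed every 3 days from a start at 75% confluence (3 libraries). Parental cells were grown alongside without lapatinib (2 libraries). Both groups carried 0.01% DMSO in RPMI medium with serum and antibiotics, and polyadenylated RNA was taken from the same number of cells for every library. The question was which transcripts differ between surviving and untreated cells.

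The authors gave 1 FPKM value per gene and group (fragments scaled to the length of the transcript and to the number mapped), so the values below carry no SD, and the depth of each library is unknown. A gene was called when the q-value of the authors' own comparison was under 0.05. Of the luminal markers KRT8, KRT18, KRT19, EPCAM, CDH1, ESR1, GATA3 and FOXA1, all 8 were above 1 FPKM in both groups, with sums of 2475 (parental) and 1850 FPKM (persister). The keratins carried these sums, while GATA3 (14.1 and 43.3 FPKM) and ESR1 (12.4 and 18.2 FPKM) rose. The other markers of this list fell. KRT8 was at 730 and 565 FPKM, KRT18 at 482.5 and 328 FPKM and KRT19 at 841 and 623 FPKM. EPCAM was at 144 and 89.6 FPKM, CDH1 at 143 and 90.0 FPKM and FOXA1 at 107 and 92.5 FPKM. ERBB2, the gene of HER2, was listed at 0 in both groups, so the label could not be checked on it, while its neighbour GRB7 was at 155 and 323 FPKM. Marker sums for other cell types were 13.5 and 8.75 FPKM for fibroblasts (6 genes, nearly all of it COL1A1). For immune cells they were 2.61 and 2.09 FPKM (5 genes), of which CD68 made up 2.30 and 1.97 FPKM. For endothelium they were 1.10 and 0.137 FPKM (4 genes). COL1A2 and CD3E were listed at 0 in persister and DCN in parental cells, and the part of such cells in the results was not tested. Among control genes, RPLP0 was at 650 and 649 FPKM and TBP was higher in persister cells (5.81 and 7.46 FPKM), whereas HPRT1 (14.7 and 12.04 FPKM), GAPDH (965 and 559 FPKM) and ACTB (1518 and 520 FPKM) were lower in persister cells.

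A cell licenses its origins in G1, when the origin recognition complex (ORC), CDC6 and CDT1 load the ring-shaped MCM2-7 helicase onto DNA. In S phase the kinase CDC7 with DBF4, together with cyclin-dependent kinases, turns the loaded ring into a moving helicase by adding CDC45 and the GINS complex. DNA polymerase alpha with primase then starts each strand, polymerases epsilon and delta extend it on the sliding clamp PCNA, and CAF-1 and ASF1 place histones on the copies. Many of these genes are known targets of E2F transcription factors, which the retinoblastoma protein holds back in resting cells.

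All 49 genes fell in persister cells. The share of all 13617 tested genes called lower was 39.0%, and the share called higher was 30.9%. In the authors' deposited table the q-value was listed as 0 for 45 of the 49 genes and in 2712 of all 18803 rows. The largest among the 49 was 6.37e-11 for RPA2. On the log2(FPKM + 1) scale the differences (persister minus parental) ran from -2.99 for TOP2A to -0.57 for POLA1, with a median of -1.55 against -0.04 over all tested genes. A fall of 1 or more on that scale was found for 40 of the 49, against 6.01% of tested genes. Among the 5% of tested genes with the lowest differences lay 37 of the 49. Since the list was chosen with earlier results known, these counts describe it and are not a test. The median gene kept 29.7% of its parental FPKM. In 19 genes less than 25% was left, in 22 genes between 25% and 50%, and in 8 genes 50% or more. All shares left use FPKM as deposited, and their median over all tested genes was 95.6%. The sum of FPKM over all rows was 333324 in parental and 260213 in persister cells. With equal sums every share would be larger by a factor of 1.28, and fewer genes would lie under 25%. In bulk RNA, fewer cells in S phase and less of a transcript per cell cannot be told apart. Direct effects of lapatinib, growth arrest and traits of the surviving cells cannot be told apart either, because no group was treated briefly or released from the drug.

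**Figure D1:**
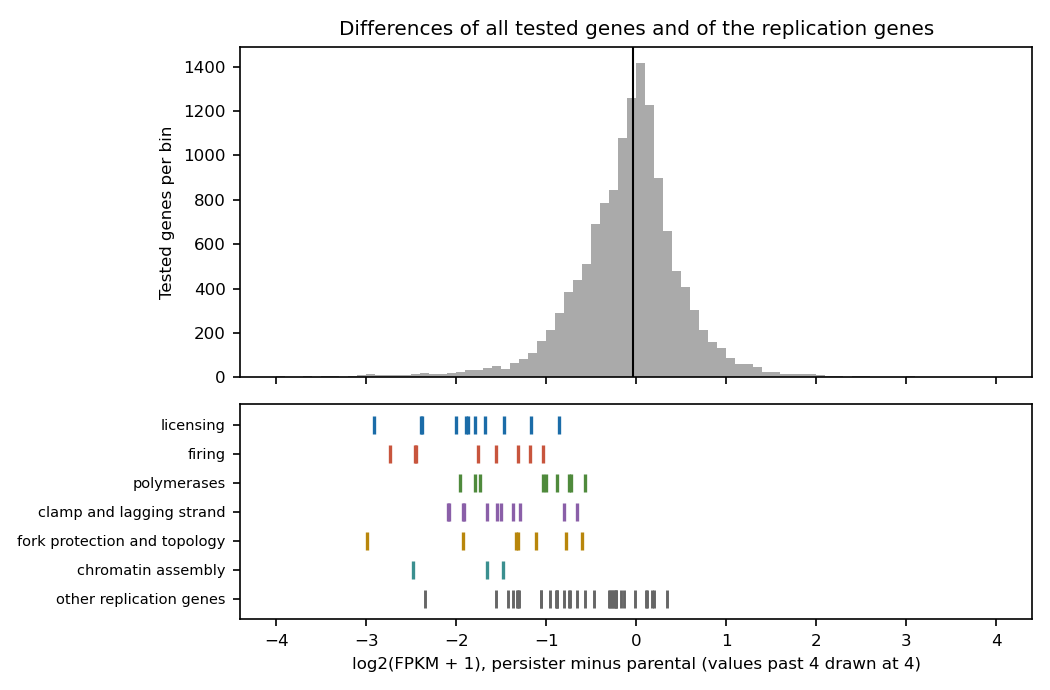
The upper panel counts all tested genes by their difference on the log2(FPKM + 1) scale, persister minus parental, with a line at the median of -0.04. In the lower panel each tick is 1 gene, sorted by replication step, and the ticks of the 49 genes span -2.99 to -0.57 while those of other replication genes reach 0.35.

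The promoters of these genes were read because their transcripts fell together. RefSeq windows (GRCh38.p14) from 250 bases before to 50 after the start of a gene were available for 41 of the 49 genes. The E2F motif was searched on both strands as TTTCCCGC, TTTGGCGC, TTTCGCGC or TTTGCCGC, and a match was found for 20 of the 41 genes (48.8%), none of them by TTTGCCGC. The same letters were found for 6.10% of 10445 tested genes with a window, for 7.75% of those called lower, and in 3.31% of all 35116 windows. For the other replication genes described below, it was found for 6 of 29 with a window (20.7%). Both lists were chosen with earlier results of these data known, so these shares describe the lists and are not a test. Median GC content was 65.7% for the 41 genes and 64.7% for the tested genes. Matches on opposite strands can share bases, as in MCM6. The sequences below are the bases just before the start, 5′ to 3′ on the strand of the gene, with the E2F letters in capitals, chosen to show 1 or more genes of the main steps whose match lies before the start. They come from chr2:135876444-135876603 (minus strand), chr16:88803709-88803788 (plus), chr16:85688955-85689034 (minus), chr11:65261882-65261961 (plus), chr12:132687343-132687422 (minus), chr20:5126623-5126702 (minus), chr13:33818069-33818148 (plus) and chr19:48170345-48170464 (minus).
MCM6: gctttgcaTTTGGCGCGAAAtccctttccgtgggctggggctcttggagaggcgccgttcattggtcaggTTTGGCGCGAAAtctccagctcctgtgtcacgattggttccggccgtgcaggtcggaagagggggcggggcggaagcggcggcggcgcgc
CDT1: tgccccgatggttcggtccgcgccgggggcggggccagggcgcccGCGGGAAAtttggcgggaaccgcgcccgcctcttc
GINS2: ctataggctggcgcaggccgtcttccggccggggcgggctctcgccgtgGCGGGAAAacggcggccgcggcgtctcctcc
POLA2: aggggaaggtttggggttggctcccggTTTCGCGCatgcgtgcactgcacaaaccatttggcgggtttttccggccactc
POLE: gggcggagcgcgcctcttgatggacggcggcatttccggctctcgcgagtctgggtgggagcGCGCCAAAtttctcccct
PCNA: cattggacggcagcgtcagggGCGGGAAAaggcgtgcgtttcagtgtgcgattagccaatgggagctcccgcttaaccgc
RFC3: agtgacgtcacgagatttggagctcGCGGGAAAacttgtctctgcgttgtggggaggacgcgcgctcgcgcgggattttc
LIG1: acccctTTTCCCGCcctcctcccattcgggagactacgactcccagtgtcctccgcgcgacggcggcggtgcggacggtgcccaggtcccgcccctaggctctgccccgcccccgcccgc

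MCM6 held 2 clusters in which TTTGGCGC overlapped TTTCGCGC of the other strand. In CDC6, MCM2 and GINS1 the match lay after the start. The 20 genes with a match kept a median of 28.4% of their parental FPKM (range 9.03% to 64.3%), and the 21 genes without one kept 24.3% (range 7.45% to 57.0%), so the ranges overlapped almost fully. Of the 5 genes with the least transcript left, MCM10, CDC45, ORC1 and TOP2A had none of these letters in their windows, while CDC6 had a match. E2F sites spelled in other letters were not searched. The CCAAT letters, known to bind NF-Y, were found for 26 of the 41 genes (63.4%), against 17 of 29 other replication genes (58.6%), 42.6% of tested genes and 34.6% of all windows. The letters TTTGAA, the core of the element used by many genes of late cell cycle, were found for 3 of the 41 (ASF1B, DBF4 and TOP2A), against 13.6% of tested genes and 15.2% of all windows. TOP2A, which had the largest fall on the log2(FPKM + 1) scale, is shown from chr17:40417897-40417996 (minus strand) with CCAAT, here on the other strand, in capitals.
TOP2A: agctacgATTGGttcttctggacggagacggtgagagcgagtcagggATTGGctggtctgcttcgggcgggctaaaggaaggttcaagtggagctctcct

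Among the 11 licensing genes, CDC6, CDT1, ORC1 and ORC6 kept 9.03% to 14.7% of their parental FPKM, and the subunits of the helicase and geminin kept more. The remaining ORC subunits, given with the other replication genes below, kept more than any helicase subunit, and no difference between loaders and helicase was tested. CDC6, the ATPase that joins ORC to recruit the MCM ring, went from 20.4 to 1.84 FPKM, which left 9.03%. CDT1, which brings the ring to the origin, went from 14.5 to 1.96 FPKM (13.5% left). Its inhibitor geminin (GMNN), which blocks a further round of licensing after S phase begins, went from 28.2 to 7.45 FPKM (26.4% left). Geminin transcript thus stood above that of CDT1 in both groups, at FPKM values that are scaled to transcript length. ORC1, the subunit of ORC that is renewed each cycle, fell from 5.63 to 0.655 FPKM, with 11.6% left. ORC6, the smallest subunit, fell from 18.6 to 2.74 FPKM, with 14.7% left. All 11 licensing genes were called lower, with a median difference of -1.86 on the log2(FPKM + 1) scale.

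The 6 subunits of the MCM2-7 ring kept between 24.6% and 54.1% of their parental FPKM. MCM6 fell from 31.6 to 7.77 FPKM (24.6% left), and MCM5 from 35.7 to 9.08 FPKM (25.4% left). MCM2, a target of the CDC7 kinase, fell from 42.5 to 12.6 FPKM (29.7% left). These subunits form an equimolar ring, yet their transcripts did not fall by equal shares. MCM7 was the most abundant and fell from 121 to 43.2 FPKM (35.7% left), and 8.94% of its exon bases overlap AP4M1 on the other strand. MCM3 fell from 52.1 to 22.5 FPKM (43.3% left). MCM4 fell least, from 36.6 to 19.8 FPKM (54.1% left), and was the only licensing gene whose fall was under 1 on the log2(FPKM + 1) scale. No test of this spread between subunits was possible without values per library.

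**Figure D2:**
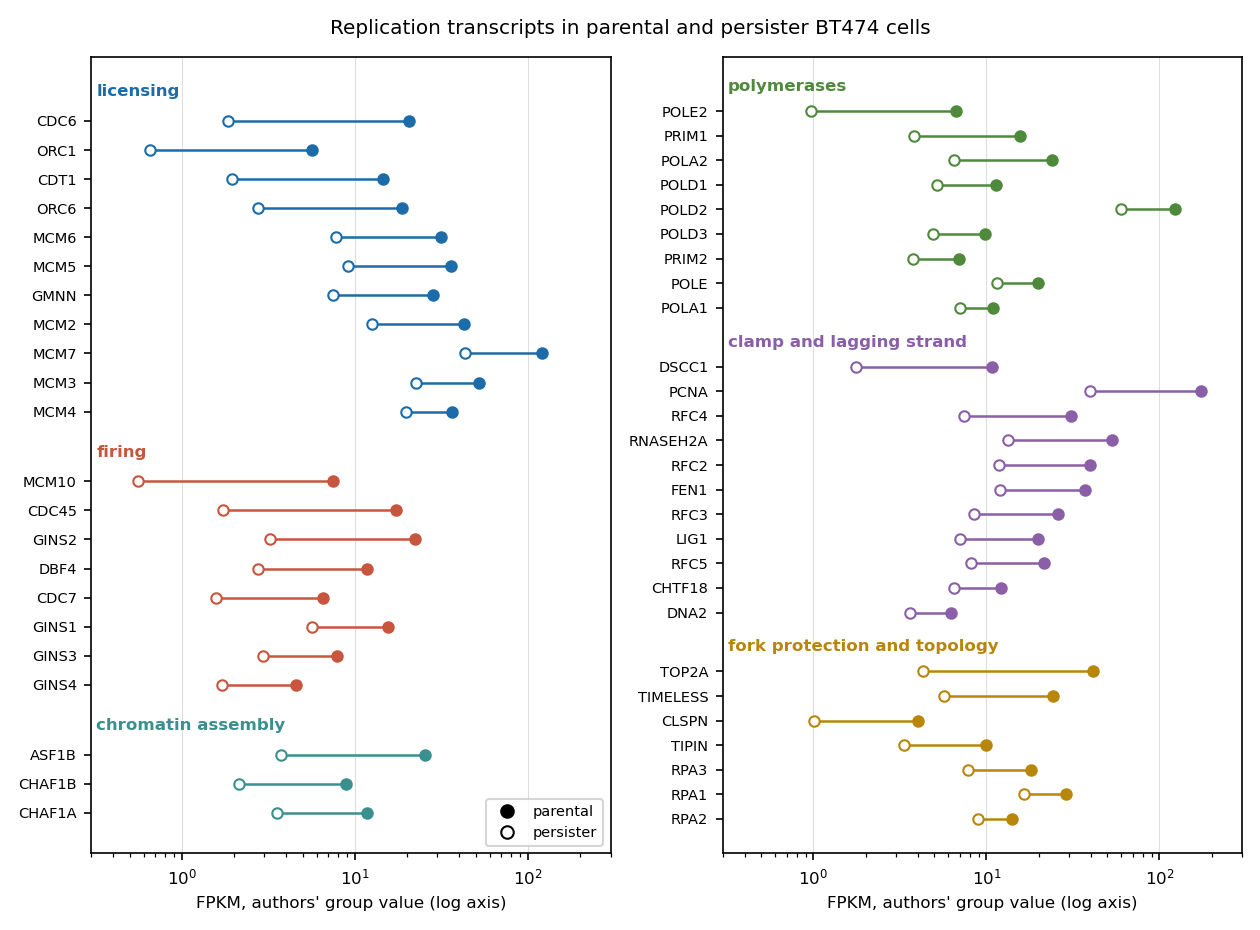
Each line joins the authors' parental (filled) and persister (open) FPKM value of 1 gene on a log axis, with genes sorted within each step by the share left. The open point lies to the left of the filled point in all 49 genes, with the longest line for MCM10 and the shortest for POLA1.

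Genes for origin firing kept a median of 23.8%, the smallest of the 6 steps on this scale, while on the log2(FPKM + 1) scale the median fall was larger for licensing. MCM10, which is needed for the helicase to start unwinding, fell from 7.48 to 0.557 FPKM and kept 7.45%, the lowest share of the 49 genes. CDC45, the helicase cofactor, fell from 17.2 to 1.73 FPKM (10.03% left). In the kinase that triggers firing, the catalytic subunit CDC7 fell from 6.55 to 1.57 FPKM (24.0% left) and its activator DBF4 from 11.7 to 2.76 FPKM (23.5% left). Both kinase subunits thus kept nearly the same share. Within the 4-subunit GINS complex, GINS2 fell from 22.3 to 3.24 FPKM (14.5% left). GINS1 fell from 15.5 to 5.63 FPKM (36.2% left). GINS3 fell from 7.89 to 2.94 FPKM (37.2% left) and GINS4 from 4.54 to 1.70 FPKM (37.5% left). GINS2 thus kept the smallest share, while the other subunits kept 36.2% to 37.5%. All 8 firing genes fell by 1 or more on the log2(FPKM + 1) scale, with a median of -1.66.

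Polymerase genes kept the largest share, with a median of 48.5% left against 25.4% for licensing and 23.8% for firing. All 9 were called lower, but 5 fell by 1 or more on the log2(FPKM + 1) scale, and the difference between steps was not tested. In DNA polymerase alpha-primase, the catalytic subunit POLA1 fell from 10.98 to 7.05 FPKM and kept 64.3%, the most of all 49 genes (q = 6.92e-15 in the authors' deposited table). The large primase subunit PRIM2 fell from 6.93 to 3.74 FPKM (54.0% left). By contrast the accessory subunit POLA2 fell from 23.9 to 6.47 FPKM (27.1% left), and the catalytic primase subunit PRIM1 from 15.7 to 3.81 FPKM (24.3% left). The complex was thus split into a pair of genes that kept over 50% and a pair that kept under 28%. POLA2 and PRIM1 share 35.1% and 14.9% of their exon bases with another protein-coding gene model on the same strand, so their values are less certain.

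DNA polymerase epsilon, which extends the leading strand, also had subunits that kept different shares. Its catalytic subunit POLE fell from 19.7 to 11.5 FPKM (58.4% left). POLE2, the subunit that ties the polymerase to the helicase, fell from 6.64 to 0.972 FPKM (14.6% left). The catalytic subunit of DNA polymerase delta, POLD1, fell from 11.4 to 5.18 FPKM (45.4% left). Its accessory subunits POLD2 and POLD3 fell from 123 to 59.5 FPKM (48.5% left) and from 9.84 to 4.89 FPKM (49.7% left). These 3 delta subunits kept much the same share although POLD2 was more than 10 times as abundant as the others in both groups.

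**Figure D3:**
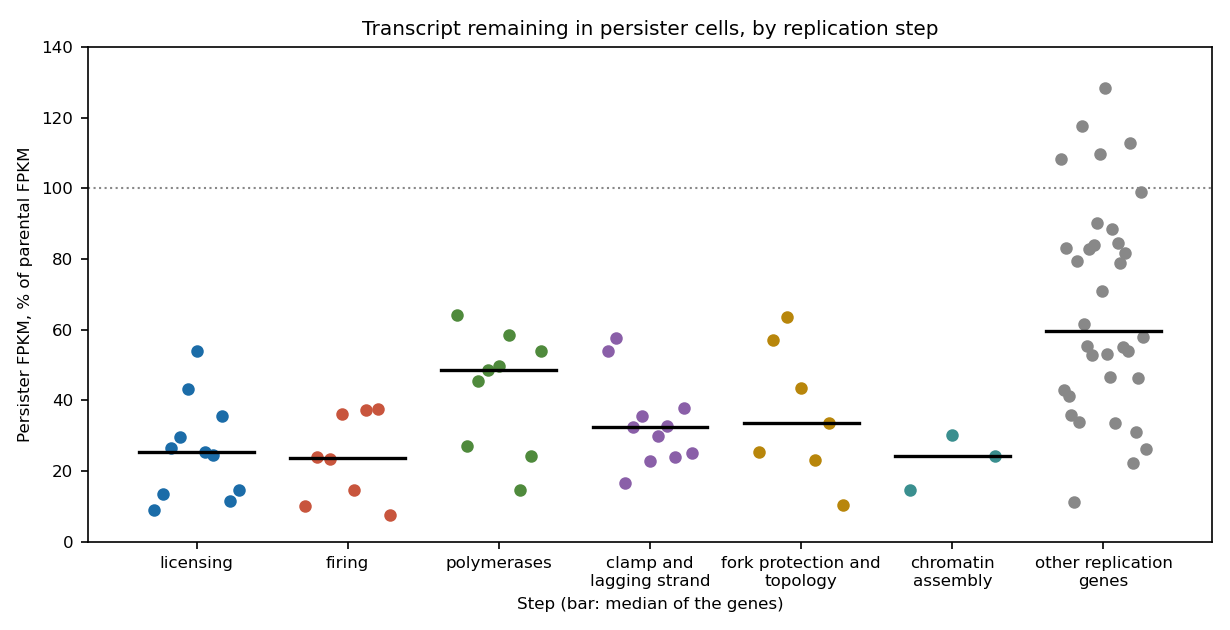
Points give the persister FPKM of each gene as a percent of its parental FPKM, grouped by replication step, and bars give the median of each group. Medians run from 23.8% for firing to 48.5% for polymerases, and the other replication genes, at a median of 59.7%, reach above the dotted line at 100%.

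PCNA, the sliding clamp, was the most abundant of the 49 transcripts in parental cells and fell from 174 to 39.9 FPKM (23.0% left). The small subunits of replication factor C, the ATPase that opens the clamp, all fell. RFC4 fell from 30.9 to 7.39 FPKM (23.9% left) and RFC2 from 39.7 to 11.9 FPKM (29.9% left). RFC3 fell from 26.0 to 8.49 FPKM (32.7% left) and RFC5 from 21.6 to 8.18 FPKM (38.0% left). In the alternative loader that acts in sister chromatid cohesion, DSCC1 fell from 10.7 to 1.77 FPKM (16.5% left), whereas CHTF18 fell from 12.1 to 6.51 FPKM (53.9% left).

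Enzymes that mature Okazaki fragments, the short pieces of the lagging strand, kept between 25.1% and 57.8%. RNASEH2A, the catalytic subunit of the RNase H2 that cuts RNA primers, fell from 53.4 to 13.4 FPKM (25.1% left), and 30.8% of its exon bases are shared with THSD8 on the same strand. The flap endonuclease FEN1 fell from 37.1 to 12.04 FPKM (32.4% left). DNA ligase I (LIG1), which seals the fragments, fell from 19.9 to 7.07 FPKM (35.6% left). DNA2, a nuclease and helicase for long flaps, fell from 6.24 to 3.60 FPKM (57.8% left). All 11 genes for the clamp and lagging strand were called lower, 9 of them by 1 or more, and DNA2 and CHTF18 were those below that size.

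Genes that protect and untangle the fork spanned nearly the whole range. TOP2A, the topoisomerase that separates intertwined DNA and peaks in G2 and mitosis, fell from 41.1 to 4.31 FPKM (10.5% left). TIMELESS, which steadies the paused fork, fell from 24.4 to 5.67 FPKM (23.2% left), and its partner TIPIN from 9.93 to 3.32 FPKM (33.5% left). Claspin (CLSPN), the mediator of the ATR checkpoint, fell from 4.002 to 1.01 FPKM (25.3% left) and was the least abundant of the 49 transcripts in parental cells. The subunits of RPA, which coats single-stranded DNA in replication and repair, kept more. RPA3 fell from 18.0 to 7.82 FPKM (43.4% left), RPA1 from 28.9 to 16.5 FPKM (57.0% left) and RPA2 from 14.0 to 8.92 FPKM (63.6% left). All 7 were called lower, with a median difference of -1.31 on the log2(FPKM + 1) scale.

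Histone chaperones of the fork fell as well. ASF1B, which hands new histones to CAF-1, fell from 25.5 to 3.75 FPKM (14.7% left). The large subunit of CAF-1, CHAF1A, fell from 11.7 to 3.55 FPKM (30.3% left). CHAF1B, its middle subunit, fell from 8.86 to 2.14 FPKM (24.1% left). All 3 genes fell by 1 or more on the log2(FPKM + 1) scale.

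The fall was not shared by every gene of the replication machinery. The list of other replication genes was also chosen with earlier results of these data known. Of 35 other replication genes, 34 were tested, with a median of 59.7% left. Of these 34, 24 were called lower, 2 higher and 8 in neither direction. Over all tested genes, 39.0% were called lower and 30.9% higher. The q-values of the unscaled comparison do not test scaled differences, whether their direction turned or not. With them kept and FPKM scaled to the same sum in both groups, 19 of these other replication genes were lower and 7 higher. The shares of all tested genes were 31.6% and 38.3%, while all 49 main genes stayed lower. The 6 with the largest falls were DTL, which targets CDT1 for destruction (9.46 to 1.06 FPKM, 11.2% left), TONSL, a reader of new histones (20.7 to 6.40 FPKM), RECQL4, a helicase of origin firing (16.5 to 5.53 FPKM), WDHD1, which couples polymerase alpha to the helicase (4.84 to 1.27 FPKM), MCM8 (10.1 to 3.44 FPKM) and TICRR, which brings factors for firing (3.33 to 0.744 FPKM, 22.3% left). The genes called higher were POLD4, the smallest subunit of polymerase delta (20.9 to 26.9 FPKM), and SUPT16H, a subunit of the histone chaperone FACT (52.4 to 59.2 FPKM). RPA4 was below 0.05 FPKM in both groups and was not tested.

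Within several complexes the 49 genes and their partners kept different shares. The partners ORC2, ORC5, POLE3, POLE4, RFC1, CHTF8, RNASEH2B, RNASEH2C, RIF1 and SSRP1 are named for their place in the machinery and were chosen after their values were seen. Beside ORC1 and ORC6, ORC5 fell to 70.8% and ORC2 to 83.9% of the parental FPKM, and ORC3 (90.1%) and ORC4 (110%) were not called. TOP2B, the isoform of TOP2A that resting cells also use, was at 54.9 and 54.4 FPKM (q = 0.862 in the authors' deposited table). ASF1A, the paralog of ASF1B, was at 14.5 and 15.7 FPKM (q = 0.356 in the same authors' deposited table). RBBP4, the small subunit of CAF-1 that other chromatin complexes also use, was at 15.6 and 13.8 FPKM and was not called. In polymerase delta, POLD4 rose to 128% of its parental FPKM while POLD1, POLD2 and POLD3 kept 45.4% to 49.7%.

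Subunits of clamp loaders and of RNase H2 kept different shares too. RFC1, the large subunit of replication factor C, fell from 11.9 to 10.01 FPKM (84.4% left). CHTF8, the partner of CHTF18 and DSCC1, fell from 28.0 to 23.3 FPKM (83.2% left). RNASEH2B kept 55.1% and RNASEH2C 81.7%, beside 25.1% for the catalytic RNASEH2A. In polymerase epsilon the histone-fold subunits POLE3 and POLE4 kept 53.0% and 46.6%, near POLE and above POLE2. SSRP1, the other subunit of FACT, fell to 53.9% while SUPT16H rose. MCM9 (5.67 and 6.67 FPKM), MTBP (4.79 and 3.97 FPKM) and LRWD1 (7.61 and 6.04 FPKM) were not called. Whether subunits of a complex differed from each other was not tested, since that needs values per library. The directions of ORC2, RFC1, CHTF8, RNASEH2C and RIF1 were lower as deposited and higher with FPKM scaled to the same sum, and the uncalled TOP2B, ORC3, RBBP4, MTBP and LRWD1 also turned from negative to positive differences.

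**Figure D4:**
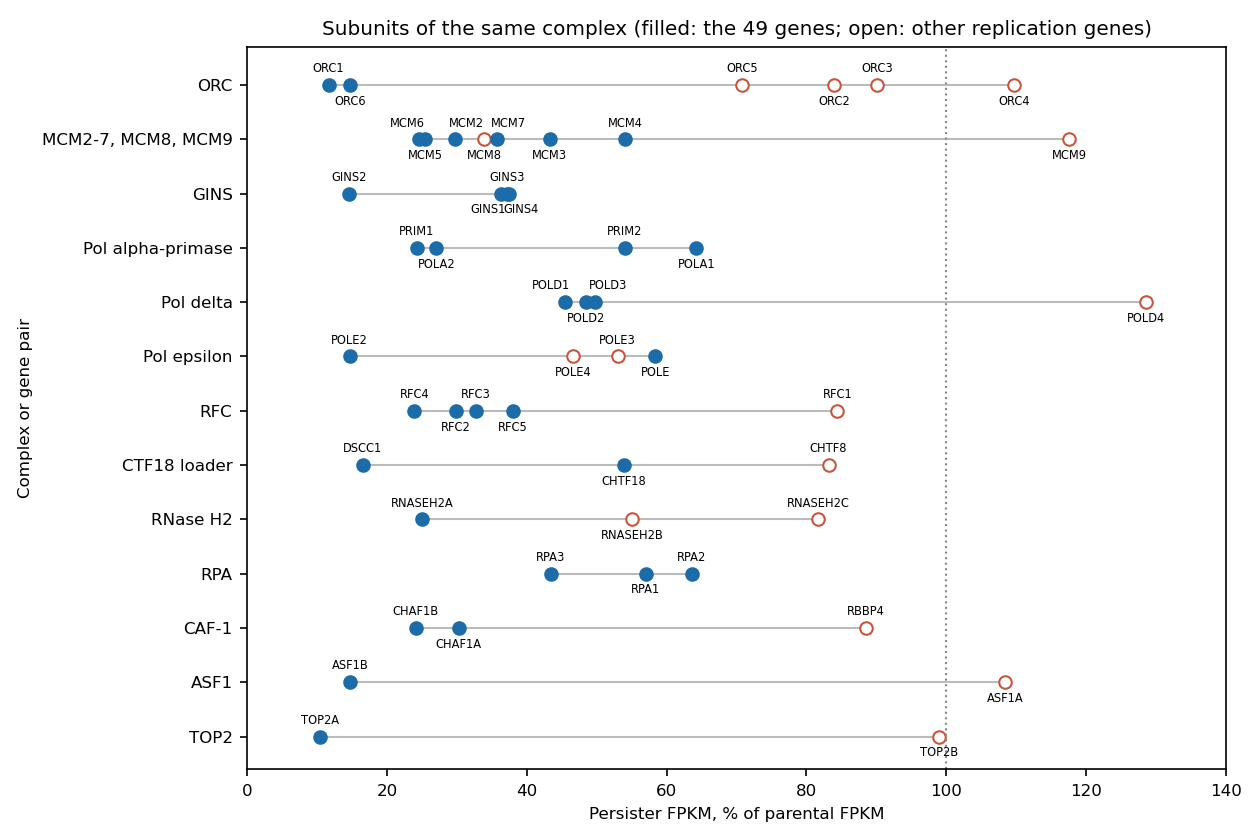
Each row is 1 complex or gene pair, and each point is the persister FPKM of a subunit as a percent of its parental FPKM, filled for the 49 genes and open for other replication genes. Filled points lie between 10.5% (TOP2A) and 64.3% (POLA1), and ORC4, MCM9, POLD4 and ASF1A lie above the dotted line at 100%.

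Across the 49 genes, Spearman's rho between the parental FPKM and the share left was -0.02, over genes that come from the same libraries and are not independent. With transcript length, known for 46 of them, Spearman's rho was 0.17, and over 9976 tested genes with at least 1 FPKM in both groups it was 0.23. The libraries did not keep strand, so reads of a gene and of a neighbour overlapping on the other strand could not be told apart, and overlaps on the same strand are uncertain with any library. Exons of another protein-coding gene overlapped 16 of the 49 genes, 3 of them (POLA2, PRIM1 and RNASEH2A) by more than 10% of their exon bases. Named pseudogenes that could take or give reads exist for 7 genes, DBF4, FEN1, PCNA, POLD2, RFC3, RFC5 and RPA2.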

How the data were processed

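The 49 genes, their steps and the list of 35 other replication genes were chosen with earlier results of these data known. Per the submitters' processing notes, reads were processed with CASAVA 1.8, TopHat2 2.0.6, Cufflinks and Cuffdiff 2.0.2 on build hg18, with settings that are not given in the sources used here. What the authors deposited is 1 table of 18803 rows with an FPKM value per group and a q-value of their comparison, which was listed as 0 in 2712 rows. The deposited fold change, another value of the authors, matched the FPKM ratio within 0.0051 for all 49 genes and was not used further. Neither counts nor values of single libraries are in the table, so the planned limma fit was not possible and no p-value was computed.

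Repeated symbols were reduced to the row of highest mean FPKM, and 26 rows with a date as symbol were keyed by transcript identifier. Tested genes are those with a q-value below 1. Differences are log2(FPKM + 1), persister minus parental, with Python 3.11.15 and pandas 2.3.3. All 49 genes are named, and of the other replication genes those called higher, those not called and the 6 with the largest falls; 10 more that were called lower were named after their values were seen, and 8 called lower are not named. The biological replicates of the labels enter only through the authors' test. The functions were tested on simulated data. Overlaps and transcript lengths are from GENCODE 29, whose build differs from that of the authors.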

Additional observations from a re-analysis of the deposited data

How the results depend on the processing

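All 49 genes were called lower with a q-value under 0.01 and after centring on the median of genes with at least 1 FPKM in both groups (-0.12). The same held with FPKM scaled to the same sum (added after the data were seen), against 31.6% of all tested genes. Among genes with at least 1 FPKM in both groups, 46 of 46 were called lower, against 44.6% of 10160 tested genes. Shares of all tested genes under the other settings are not given. Every setting kept the deposited q-values, the largest of which was 6.37e-11 among the 49 genes. Centring and equal sums shift all genes nearly alike, and the other settings cannot turn the sign of a single gene. Neither centring (-0.12) nor equal sums (a shift of at most 0.36) could turn the smallest fall, -0.57 for POLA1. The call of all 49 genes was thus fixed in advance under these settings, and no scaled difference was tested. The median of -1.55 became -1.74 with a pseudocount of 0.1, -1.53 with the FPKM minimum, -1.44 when centred and -1.32 with equal sums. In the same order, the medians became -1.96, -1.83, -1.75 and -1.54 for licensing, -2.02, -1.55, -1.54 and -1.41 for firing, and -1.04, -0.94, -0.89 and -0.68 for polymerases. With the pseudocount, centred and with equal sums they became -1.62, -1.43 and -1.22 for the clamp and lagging strand, -1.55, -1.197 and -1.05 for fork protection and topology, and -2.002, -1.54 and -1.40 for chromatin assembly. Of the 49 genes, those lower by at least 1 numbered 36 when centred and 33 with equal sums, instead of 40. The same shares of all tested genes are not given for these settings. Firing genes lower by at least 1 numbered 7 when centred and 6 with equal sums, instead of 8. For polymerases the number was 3 in both settings instead of 5, and for fork protection and topology 4 instead of 5. With equal sums it was 9 instead of 10 for licensing and 8 instead of 9 for the clamp and lagging strand. Other replication genes called higher numbered 1 at a q-value under 0.01, instead of 2. The gene no longer called was SUPT16H (q = 0.0133 in the authors' deposited table). With equal sums 7 had a positive difference and a q-value under 0.05. Those q-values belong to the unscaled comparison, so no difference at equal sums was tested, whether its direction turned or not. With equal sums the differences of ORC2 (0.096), RIF1 (0.013), RFC1 (0.105), CHTF8 (0.088) and RNASEH2C (0.062) turned positive, as did those of TOP2B (0.34), ORC3 (0.19), RBBP4 (0.17), MTBP (0.07) and LRWD1 (0.02), which were not called. Summing the rows of repeated symbols could not change the 49 genes, none of which stood on more than 1 row. No paired analysis was possible because the table holds no value per library, and no library could be left out for the same reason. Depth is unknown, so counting error could not be set beside MCM10, ORC1 and POLE2, which were under 1 FPKM in persister cells.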
